A study of Mus musculus with 6 samples.

Results

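The NMDA receptor subunit genes of the mouse striatum, Grin1, Grin2a, Grin2b, Grin2c, Grin2d, Grin3a and Grin3b, are described here in wild-type (WT) mice and in transgenic (TG) mice that overexpress Shank3. They were taken as the rows of the deposited expression table whose Ensembl identifiers carry these gene symbols in the GENCODE M21 mouse annotation, which gave 7 of the 46078 genes in the table, and all 7 passed the filter of a mean of at least 10 normalized reads. The 6 RNA-seq libraries came from the dissected striatum of 3 mice of each genotype, all of them males aged 12 weeks on a C57BL/6J background. The TG mice carry an EGFP-Shank3 transgene, in which the green fluorescent protein EGFP tags the postsynaptic scaffold protein Shank3, next to their own Shank3 gene. The promoter of the transgene is not given in the sources used here. Which subunits the striatum transcribes, in what proportions, and whether those levels differ between the genotypes are the questions addressed.

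NMDA receptors are glutamate-gated cation channels that admit calcium and are needed for many forms of synaptic plasticity. They are tetramers. GluN1, the product of Grin1, is the obligatory subunit and binds the co-agonist glycine or D-serine. The GluN2 subunits, from Grin2a to Grin2d, bind glutamate and set how long the channel stays open and how strongly magnesium blocks it. GluN3A and GluN3B bind glycine and lower calcium permeability when they join the receptor. In the striatum the receptors sit on medium spiny neurons, the inhibitory projection neurons that receive cortical and thalamic glutamate input, where GluN2B is a main partner of GluN1. The ends of the GluN2 tails bind PSD-95 (Dlg4) and related membrane-associated guanylate kinases (MAGUKs), and PSD-95 is linked through SAPAP proteins to Shank3, so that GluN2 subunits and Shank3 belong to 1 postsynaptic assembly.

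The coding ends of the 7 genes are shown because they encode the C-terminal tail through which GluN2 subunits are tied to that assembly, and because they show which members are alike. Each line gives the last 30 coding bases of the longest coding transcript in GENCODE M21 (genome build GRCm38), 5′ to 3′ on the coding strand, with the last 4 codons before the stop codon in capitals.
Grin1: cagctgtgttcccgtCATAGGGAGAGCtga
Grin2a: aaaatgcctagtattGAATCTGATGTCtaa
Grin2b: aaactttctagtattGAGTCTGATGTCtga
Grin2c: cggatctccagcctgGAATCAGAAGTGtga
Grin2d: cacttctccagcctgGAGTCCGAGGTAtga
Grin3a: caaaggacgaaccggACTTGTGAATCCtag
Grin3b: ctgctgcatgcggcgCCCGCCGAGAGCtga
The capitals of Grin2a and Grin2b were identical at 11 of 12 bases and encoded the same 4 residues. Those of Grin2c and Grin2d were identical at 8 of 12 bases and also encoded the same 4 residues, 3 of which are those of Grin2a and Grin2b. Grin1, Grin3a and Grin3b shared at most 1 of 4 residues with any GluN2 end. Transcripts with another end are annotated for Grin1, Grin2b and Grin3b, which each had 2 distinct ends.

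The genes lie on 7 chromosomes. In GRCm38, Grin1 (ENSMUSG00000026959) is at chr2:25291181-25319187, Grin2a (ENSMUSG00000059003) at chr16:9567898-9995560, Grin2b (ENSMUSG00000030209) at chr6:135713233-136173511, Grin2c (ENSMUSG00000020734) at chr11:115249169-115267243, Grin2d (ENSMUSG00000002771) at chr7:45831883-45878378 and Grin3a (ENSMUSG00000039579) at chr4:49661611-49845744, all on the minus strand. Grin3b (ENSMUSG00000035745) is at chr10:79970715-79977190 on the plus strand. The coding ends above lie in a single exon of each gene. The longest exact run shared by the transcripts of any pair of members was between 13 and 34 bases over the 21 pairs, so the members hold no long stretch in common to which reads of one could be assigned in place of another.

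The depth was between 27689589 and 36647626 recovered reads per library, and no library was a copy of another. Shank3 was 29891, 28309 and 26044 normalized reads in TG against 13807, 12918 and 13865 in WT mice (log2 fold change 1.05, SE 0.06, adjusted P = 7.04e-05 by limma), with reads of the transgene and of the mouse's own gene counted together. Markers of medium spiny neurons were abundant in all libraries (Pde10a 31505 to 45595), and so was Slc17a7 (20237 to 29848), which encodes the vesicular glutamate transporter of cortical excitatory neurons and is not known from medium spiny neurons. TG replicate 1 stood apart by choroid plexus RNA. Its transthyretin (Ttr) value was 13701, against 204 to 1122 in the other TG libraries and 120 to 432 in the WT libraries, and its summed medium spiny neuron markers were the lowest of the 6 libraries. TG replicate 2 had the lowest summed cortical excitatory markers, at 32258 against 36915 to 43807 in the other libraries. Its summed medium spiny neuron markers were the highest (202896), just above WT replicate 3 (202847). In bulk tissue, fewer cells of a type and less RNA per cell cannot be told apart.

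Grin1, the obligatory subunit gene, was at a similar level in both genotypes. The normalized Grin1 count came to 11793, 12088 and 11953 in TG replicates 1, 2 and 3, against 11789, 12555 and 13059 in the WT replicates. The lowest WT value lay below the lowest TG value, so the groups overlapped, and the WT mice were the more spread (12468 ± 639, SD, n = 3) compared to the TG mice (11945 ± 148). The log2 fold change (TG minus WT) was -0.06 (SE 0.05, 95% interval -0.17 to 0.05, adjusted P = 0.971 by limma), which in linear terms leaves room for a fold of 0.889 to 1.03. The exons of Grin1 share 1307 bases, or 13.5% of their length, with the antisense transcript Grin1os. Grin1os was listed at 410 to 531 normalized reads, with a log2 fold change of -0.08 (adjusted P = 0.971 by limma), and whether the counting used strand is not given in the sources used here, so that reads from the shared bases cannot be told apart.

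Grin2b and Grin2a, which encode the main GluN2 partners in forebrain neurons, did not pass the test either. Grin2b was the highest of the 7 by read count, at 18132, 18492 and 18992 in TG and 17274, 19986 and 17119 in WT mice. WT replicate 2 was above all other libraries and the other WT mice were below all TG mice, so the groups overlapped. Grin2b differed by a log2 fold change of 0.04 (SE 0.06, 95% interval -0.1 to 0.18, adjusted P = 0.983 by limma). Grin2a was 6042, 5701 and 5949 in TG and 5513, 5960 and 5000 in WT mice. The TG values were close together, and WT replicate 2 lay within their range, above TG replicates 2 and 3. Its log2 fold change was 0.11 (SE 0.06, 95% interval -0.03 to 0.25, adjusted P = 0.971 by limma). Both genes were thus slightly higher on average in the Shank3 TG striatum, by amounts inside the error of the comparison. Among genes that share exon bases with Grin2b on the opposite strand, Gm26653 (49 shared bases) was at 17.2, 18 and 21.4 in TG against 27.5, 25.3 and 25.5 in WT mice (log2 fold change -0.45, adjusted P = 0.971 by limma), without overlap but not past the test. Gm14329, which also faces Grin2b, was at 1.14 or below, and the miRNA genes Gm22892 (facing Grin2b) and Gm25837 (facing Grin2c) were listed at 0.

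Grin2c was the single member whose genotypes did not overlap. GluN2C is best known from cerebellar granule cells, thalamic neurons and astrocytes. The Grin2c values were 1944, 2050 and 1966 in the Shank3 TG striatum and 2236, 2226 and 2327 in the WT striatum. Every TG mouse was below every WT mouse, with a small spread inside each genotype (1987 ± 55.9 compared to 2263 ± 55.5, SD, n = 3). The log2 fold change was -0.19 (SE 0.05, 95% interval -0.29 to -0.08), a fold of 0.878 (95% interval 0.816 to 0.945). The unadjusted P value was 0.00256 by limma, which placed Grin2c at rank 20 among the 17605 genes tested, and the adjusted P value over these genes was 0.971. With edgeR's quasi-likelihood test on the recovered reads the unadjusted P was 0.00254 (adjusted P = 0.976), and with DESeq2 it was 0.00348 (adjusted P = 1). An exact two-sided permutation test over the mice gave P = 0.1, the smallest value that 3 against 3 mice allow. The Grin2c difference therefore did not pass the threshold of an adjusted P value of 0.05.

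The count of 1 member of 7 without overlap is to be read against all genes tested, of which 10.1% had genotypes that did not overlap (5.06% higher and 5.05% lower in TG). By limma's unadjusted P value under 0.05, 1 member of 7 passed, lower in TG, and 4.31% of all genes tested did (2.33% lower in TG). The count of members was also 1 of 7 by the unadjusted P values of edgeR, DESeq2 and limma-voom, beside 4.38%, 2.45% and 4.24% of all genes tested. After adjustment limma called 0 of the 7 members, while Shank3 was the single gene it called, which is 0.00568% of the genes tested. DESeq2 called 0 of the 7 members and 0.0398% of all genes. The paper's own analysis called more genes, using DESeq2 with P values first corrected by an empirical estimate of the null distribution. That correction was not applied here. Across all genes tested the middle 90% of log2 fold changes ran from -0.27 to 0.23, and the fold changes of all 7 members lay inside that range.

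**Figure D1:**
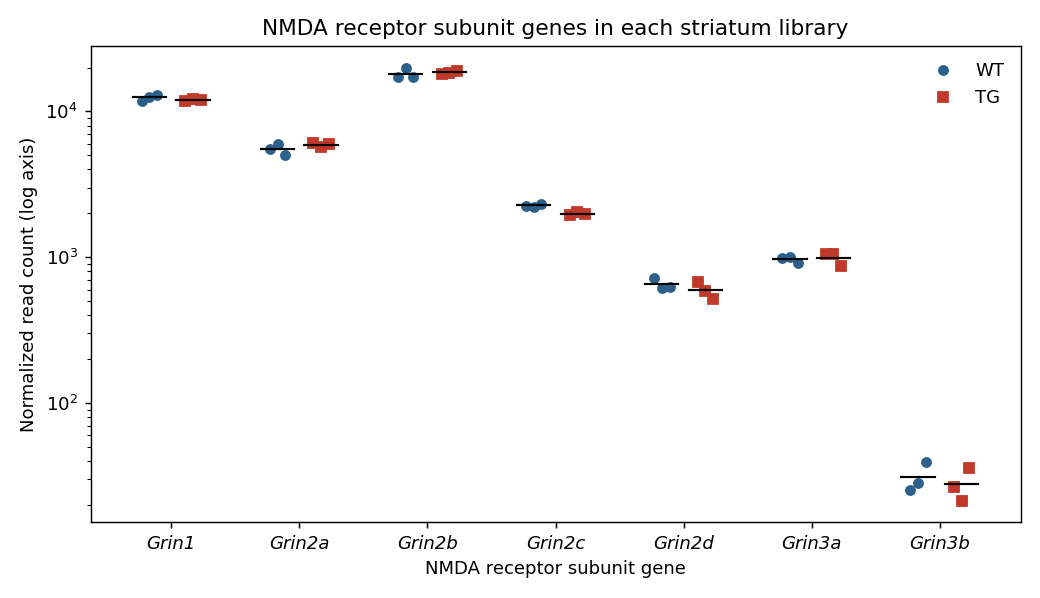
Normalized read counts (log axis) of the 7 NMDA receptor subunit genes in each striatum library, with WT mice as circles, TG mice as squares and the group mean as a line. Grin2b is highest and Grin3b lowest in all libraries, and the genotypes separate for Grin2c alone.

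**Figure D2:**
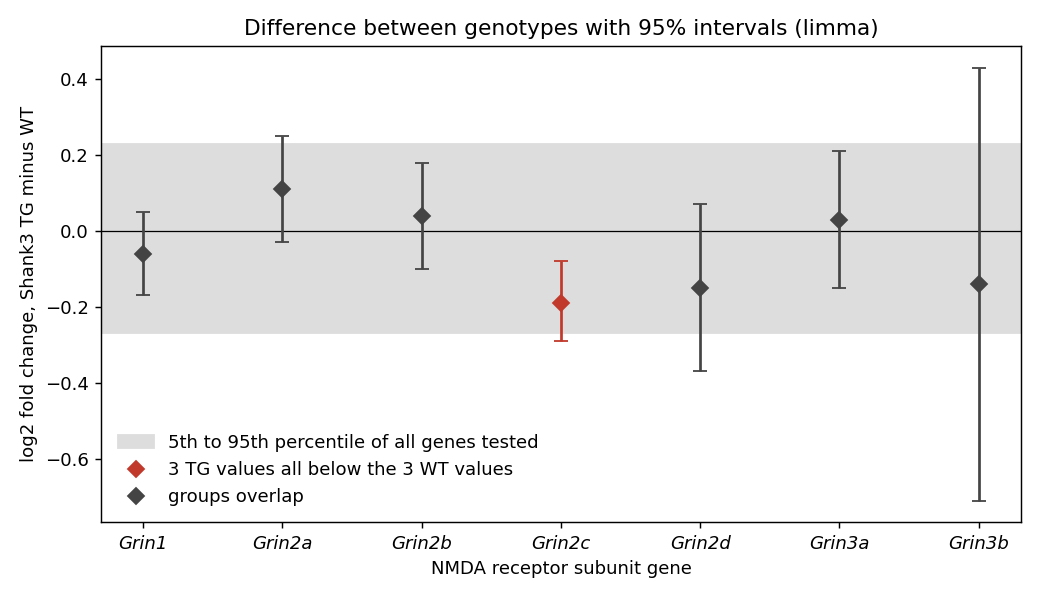
The log2 fold change of each subunit gene, Shank3 TG minus WT, with its 95% interval from limma; the grey band spans the 5th to the 95th percentile of all genes tested (-0.27 to 0.23). The interval of Grin2c (-0.29 to -0.08) lies below 0, the other 6 intervals include 0, and no member passed the adjusted threshold.

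Markers of the cell types known for GluN2C were also measured. Of the 8 astrocyte markers, 6 were lower and 2 higher in the TG mice on average, with a median log2 fold change of -0.13. Their summed level was 32784 to 36730 in the TG and 36309 to 40193 in the WT libraries, so the groups overlapped, and none was called. Within this list Fgfr3 and Aldoc were below every WT value in all TG mice (log2 fold changes -0.16 and -0.07), whereas the astrocytic gap junction gene Gjb6 was above every WT value (0.16). These are 2 lower and 1 higher of the 8, beside 5.05% and 5.06% of all genes tested. By limma's unadjusted P value under 0.05, 2 of the 8 were lower, beside 2.33% of all genes tested. The cerebellar granule cell markers were low, and some of them were near the floor. Gabra6, the GABA receptor subunit that defines these cells, was at 0 to 2.95 in all libraries, and the most abundant gene of the list, Cbln1, was at 138 to 160, with summed levels of 228 to 255 in TG and 244 to 272 in WT. Of the 3 granule cell genes tested, 1 was higher and 2 lower, with a median of -0.06, and Cbln3 (9.44, 14.6 and 10.7 in TG, 16, 16.8 and 16.7 in WT) did not overlap. Cbln3 was 1 of the 3 tested, beside 5.05% of all genes tested that were lower in TG without overlap. The mean log2 deviation over this list was -0.10 to -0.08 in TG and -0.02 to 0.20 in WT, also without overlap (exact permutation P = 0.1). The counts of this list were below the median of all genes tested (488). For thalamic neurons, the kinase gene Prkcd was highest in TG replicate 1 (675, against 330 to 419 elsewhere), and 3 of the 4 markers were higher and 1 lower (median 0.07). The part of these cell types in the Grin2c difference was not tested.

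The other marker lists were as follows. The 5 microglia markers were all lower on average in the TG mice (median -0.10). Their summed level was 8112 to 8739 in TG against 8827 to 9111 in WT, which did not overlap. The mean log2 deviation over the list did not overlap either (exact permutation P = 0.1). That is the smallest value this test can give, and it was not adjusted over the marker lists. Csf1r, the most abundant, was at 3524 to 4281 with overlapping groups. Of the 5, 3 did not overlap, all lower in TG, beside 5.05% of all genes tested. By limma's unadjusted P value under 0.05, 2 of the 5 were lower, beside 2.33% of all genes tested. Of the 13 medium spiny neuron markers, 11 were lower (median -0.14), with overlapping summed levels of 146332 to 202896 in TG and 175536 to 202847 in WT. The 10 cortical excitatory markers were 5 higher and 5 lower (median 0.01), and the 9 interneuron markers, led by the neuropeptide gene Sst at 4415 to 5334, were 4 higher and 5 lower (median -0.02). The 8 oligodendrocyte lineage markers, led by Mbp at 99650 to 119519, were 3 higher and 5 lower (median -0.05), and the 4 endothelial markers, led by Flt1 at 2604 to 3017, were 2 higher and 2 lower. The 7 choroid plexus markers tested were all higher (median 0.86), with summed levels of 627 to 15277 in TG and 542 to 883 in WT. Of the 7, 3 were higher by limma's unadjusted P value under 0.05, beside 1.98% of all genes tested. Without overlap were 2 of the 7, beside 5.06%. Among the 4 endothelial markers, 1 was higher by that P value and 1 did not overlap. The medium spiny, cortical, interneuron and oligodendrocyte lists held none of either kind. None of these genes was called by limma, whereas the paper called the choroid plexus marker Clic6. Each Grin gene was also related to the mean log2 deviation of the medium spiny, cortical, interneuron and astrocyte lists. Over the 6 libraries Pearson's r was between -0.63 and 0.6 in these 28 relations, with a smallest adjusted P of 0.892 by exact permutation. Without the 2 libraries farthest from the median deviation, 13 of the 28 changed sign. Beyond these relations the part of the cell types in the Grin values was not tested. Several of the marker counts rest on TG replicate 1. Without it, 7 of the 13 medium spiny neuron markers were higher and 6 lower (median 0.02), 8 of the 9 interneuron markers were higher (median 0.10), 1 of the 4 thalamic markers was higher (median -0.03) and 5 of the 7 choroid plexus markers were higher and 2 lower (median 0.41), while microglia markers stayed at 5 of 5 lower and astrocyte markers were 7 of 8 lower. The log2 fold change of Grin2c was -0.17 without this library.

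**Figure D3:**
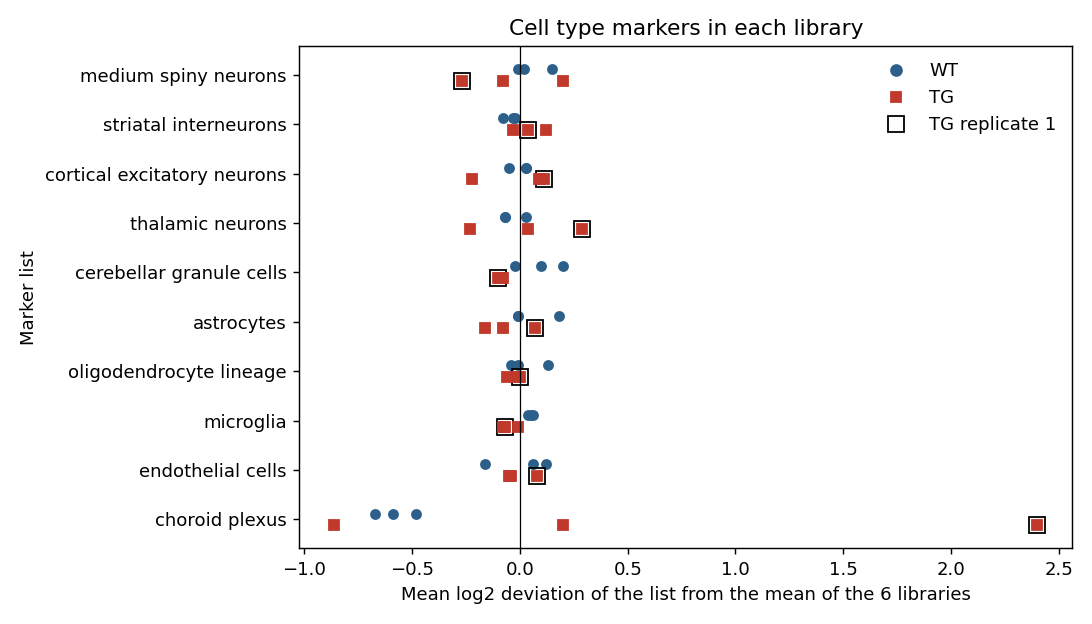
Mean log2 deviation of each cell type marker list from the mean of the 6 libraries, with WT mice as circles, TG mice as squares and TG replicate 1 boxed. TG replicate 1 is highest for choroid plexus (2.40) and lowest for medium spiny neurons (-0.27), and the points of the genotypes do not overlap for microglia or for the low-count cerebellar granule cell list.

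Grin2d, which encodes the slowly deactivating subunit known from interneurons and from the developing brain, was the lowest of the GluN2 genes. It was at 674, 584 and 519 normalized reads in TG against 722, 619 and 626 in WT mice. The 2 lowest values were TG and the highest was WT, but TG replicate 1 lay between the WT values. The log2 fold change was -0.15 (SE 0.1, 95% interval -0.37 to 0.07, adjusted P = 0.971 by limma), and it was -0.25 without TG replicate 1 and -0.06 without TG replicate 3. The spread inside the genotypes was wider for Grin2d (SD 0.16 on the log2 scale) than for Grin2c (0.04), so a fold change of nearly the same size stood less far from 0. The antisense gene Gm45441 shares 643 bases, or 9.66%, of the Grin2d exons. It is absent from the deposited expression table, so its level is not known here.

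The GluN3 genes did not separate the genotypes. By read count Grin3a was above Grin2d in all libraries, and Grin3b was the lowest of all members. Grin3a, whose product is known for restraining synapse maturation, was at 1049, 1051 and 870 in TG against 980, 1007 and 907 in WT mice. TG mice held both the highest values and the lowest one. The log2 fold change was 0.03 (SE 0.08, 95% interval -0.15 to 0.21, adjusted P = 0.986 by limma), and -0.01 without TG replicate 1. Grin3b, the subunit gene known from motor neurons, was close to the filter. It was at 26.6, 21.4 and 36 in TG against 25.2, 28.1 and 39.3 in WT mice, on 31, 19 and 37 recovered reads against 22, 30 and 40. A count of 19 has an exact 95% Poisson interval of 11.4 to 29.7, for counting error alone, so a difference of moderate size was not detectable at this depth. For Grin3b the estimate was -0.14 (log2 fold change) with a 95% interval of -0.71 to 0.43 (adjusted P = 0.983 by limma). Of its exon bases, 1059 (32.1%) are shared with the gene Tmem259 on the opposite strand, which was at 3019 to 3498, so reads from the shared bases cannot be told apart and the level of Grin3b is uncertain.

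Levels were compared between subunit genes per kilobase of exon, using the length of the union of each gene's exons (in bases: 9700 for Grin1, 24842 for Grin2b, 5037 for Grin2c, 17933 for Grin2a, 6658 for Grin2d, 12275 for Grin3a and 3296 for Grin3b). On this scale Grin1 was highest, at 1285 ± 65.9 normalized reads per kb in WT and 1231 ± 15.2 in TG (SD, n = 3). Grin2b followed with 730 ± 64.9 in WT and 746 ± 17.4 in TG, a mean of 1.71 times lower than Grin1. Next came Grin2c at 449 ± 11 and 394 ± 11.1, and Grin2a at 306 ± 26.8 and 329 ± 9.84. All 6 libraries held this order, with no overlap between neighbours. Grin2d was at 98.5 ± 8.64 in WT and 89 ± 11.7 in TG, a mean of 3.43 times lower than Grin2a. It was above Grin3a (78.6 ± 4.21 and 80.6 ± 8.48) in 6 of 6 libraries, by a mean ratio of 1.18, although the ranges of these neighbours overlapped. Grin3b was the lowest, at 9.36 ± 2.26 in WT and 8.49 ± 2.26 in TG, a mean of 9.43 times below Grin3a.

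The place of Grin2c in that order depended on the length used. Long untranslated exons make up much of Grin2b and Grin2a, as 81.5% of the longest Grin2b transcript is noncoding, whereas Grin2c is compact. Divided by the length of the longest transcript, Grin2c was above Grin2a in 4 of 6 libraries by a mean ratio of 1.12, with overlapping ranges. Divided by the coding length alone, Grin2a was above Grin2c in 6 of 6 libraries by a mean ratio of 2.29, and Grin1 and Grin2b were nearly equal (mean ratio 1.03, Grin1 above in 4 of 6). Grin3a also moved above Grin2d by both of these lengths. By each of the 3 lengths Grin1 led on average, Grin2b was the highest GluN2 gene and Grin3b was last. The annotation release used for the counting is not given in the sources used here, so none of the lengths can be preferred from it.

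The make-up of the GluN2 transcripts was taken within each library as the share of the summed level per kb of the 4 Grin2 genes, which does not depend on the scaling between libraries. Over the 6 libraries Grin2b made up 46.9% on average, Grin2c 26.9%, Grin2a 20.2% and Grin2d 5.97%. With coding lengths the same shares were 67%, 9.32%, 21.1% and 2.57%. Grin2b is thus the largest share by either length, and the size of the Grin2c share rests on the length.

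Between the genotypes, the Grin2c share was 24.8, 26.1 and 24.9% in TG against 28.5, 26.4 and 30.3% in WT mice. All TG shares were below all WT shares, with TG replicate 2 and WT replicate 2 close to each other, and the means differed by -3.12 percentage points (25.3 ± 0.722% compared to 28.4 ± 1.94%, SD, n = 3). The Grin2a share was 21.7, 20.4 and 21.2% in TG and 19.8, 19.9 and 18.3% in WT, a difference of 1.79 points in the other direction, again without overlap. For both shares the exact two-sided permutation test gave P = 0.1, the smallest it can give with 3 mice per genotype, and an adjusted P of 0.35 over the 7 tests of composition. With coding lengths the Grin2c difference was -1.39 points and the groups still did not overlap, while the Grin2a shares overlapped (difference 1.19 points, exact permutation P = 0.2). Shares sum to a whole, so a lower share of one gene raises the others.

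The Grin2b share was 47, 47.8 and 48.9% in TG and 44.7, 48.1 and 45.2% in WT, where WT replicate 2 lay among the TG values (difference 1.86 points, exact permutation P = 0.3). The Grin2d share was 6.52, 5.64 and 4.98% in TG and 6.97, 5.56 and 6.17% in WT, with overlapping groups (difference -0.524 points, exact permutation P = 0.5; -0.93 points without TG replicate 1). Ratios between subunit classes did not separate the genotypes. The log2 ratio of Grin2a to Grin2b, which increases during postnatal development as GluN2A joins synapses, was -1.18 ± 0.06 in TG and -1.25 ± 0.07 in WT (difference 0.07, exact permutation P = 0.3; 0.04 without TG replicate 1). That of Grin1 to the summed Grin2 genes was -0.34 ± 0.02 and -0.30 ± 0.11 (difference -0.04, exact permutation P = 1), and that of the summed Grin3 to the summed Grin2 genes was -4.13 ± 0.11 and -4.17 ± 0.03 (difference 0.04, exact permutation P = 0.6; 0.00 without TG replicate 1).

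**Figure D4:**
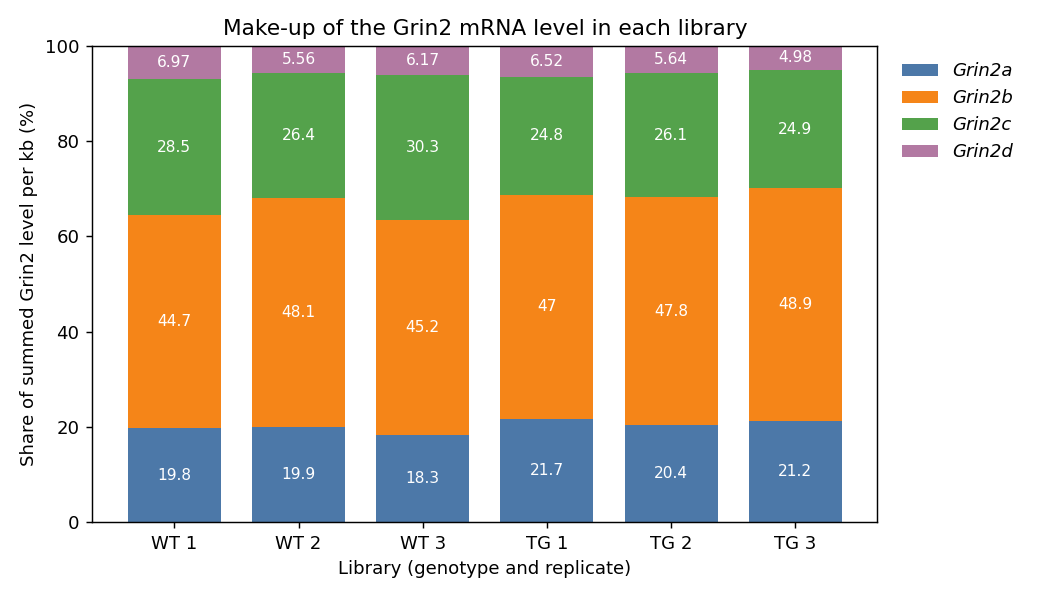
Share of each Grin2 gene in the summed Grin2 level per kb of exon (%), stacked to 100 for each library, with the value printed in each bar. Grin2b is the largest share in all 6 libraries, and the Grin2c share is 24.8 to 26.1% in the TG and 26.4 to 30.3% in the WT libraries.

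The variation of the members over the 6 libraries was described by Pearson's r of the log2 values, with no test, over 3 TG and 3 WT libraries together, so that a difference between the genotype means enters r. Grin2a and Grin2b varied together (r = 0.75), Grin2a and Grin2c in opposite directions (r = -0.75), and Grin1 with Grin2c (r = 0.7). The lowest r was between Grin3a and Grin3b (-0.87), the latter on few reads. The genes most alike to Grin2c were Zc3h18, a zinc finger gene (r = 0.993; 1571, 1608 and 1564 in TG, 1692, 1707 and 1741 in WT), and Idnk, a gluconokinase gene (r = 0.989). For Grin1 they were Gm13075 (0.996) and Irf8, a transcription factor gene of microglia (0.982). For Grin2a they were Gng2, a G protein gamma subunit gene (0.996), and Ddias (0.994), and for Grin2b Zfp398 (0.983) and Gm17477 (0.972). Grin2d was most like Iscu, an iron-sulphur cluster scaffold gene (0.995), and Metrn (0.993), Grin3a most like Fam210b (0.987) and Arf4 (0.986), and Grin3b most like Rhoh (0.989) and ENSMUSG00000051107 (0.982). With 6 points and this many genes, no such value singles out a gene: between 18 and 58 of the 17605 genes tested had an r above 0.95 with a given member.

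Genes that act with the receptor were followed in 8 lists of 93 genes, of which 85 were tested. In these, 41 were higher and 44 lower in the Shank3 TG striatum, with a median log2 fold change of -0.01, and 0 were called by limma or by DESeq2. By limma's unadjusted P value under 0.05, 1 gene was higher (1.98% of all genes tested) and 0 were lower. The genotypes did not overlap for 9 of the 85, or 10.6%, beside 10.1% of all genes tested. The share of partner genes that separated the genotypes was thus near that of genes at large.

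Of the 4 MAGUK scaffolds that bind GluN2 tails, 2 were higher and 2 lower (median 0.01). Dlg4, which encodes PSD-95, was the highest at 1949 normalized reads per kb of exon and had a log2 fold change of -0.05 (adjusted P = 0.971 by limma). Dlg1, which encodes SAP97, was 6922, 7122 and 7311 in the TG and 6886, 6829 and 6604 in the WT mice, a log2 fold change of 0.07 without overlap (adjusted P = 0.971 by limma). Among 21 kinases and phosphatases that act on the receptor, 11 were higher and 10 lower (median 0.00). Camk2a, the calcium/calmodulin-dependent kinase that docks on GluN2B, was at 81066, 69179 and 77812 in TG and 84540, 84538 and 81021 in WT, where TG replicate 1 overlapped the WT mice (log2 fold change -0.14, adjusted P = 0.971 by limma). Csnk2a1, a casein kinase 2 gene, had a log2 fold change of 0.06.

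Of 18 intracellular partners and trafficking genes, 8 were higher and 10 lower (median -0.02). Rasgrf1, a calcium-dependent Ras exchange factor that binds GluN2B, had the smallest unadjusted P value of the 85 genes. It was at 12454, 12372 and 12068 in the Shank3 TG striatum and 10344, 11192 and 11445 in the WT striatum. All TG mice were above all WT mice, with a log2 fold change of 0.16 (SE 0.05, unadjusted P = 0.00831, adjusted P = 0.971 by limma), so Rasgrf1 did not pass the threshold. Calm2, a calmodulin gene and the highest of the list per kb of exon, had a log2 fold change of 0.02. Of the 6 surface partners 3 were higher and 3 lower, with log2 fold changes of -0.1 for the receptor tyrosine kinase gene Ephb2, 0.01 for the auxiliary subunit gene Neto1 and 0.06 for the adhesion gene Lrfn2.

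Supply and removal of the agonists held no called gene. Of 13 glycine and D-serine genes tested, out of 15 listed, 6 were higher and 7 lower (median -0.03). Without TG replicate 1 these were 4 and 9 (median -0.04). Phgdh, the first enzyme of L-serine synthesis, was 2217, 2224 and 2079 in TG and 2232, 2347 and 2338 in WT (log2 fold change -0.09, adjusted P = 0.971 by limma), with the groups just separate. Psat1, the next enzyme, and Slc1a4, a neutral amino acid transporter gene, had log2 fold changes of -0.05 and 0.07. Of 7 genes of glutamate uptake and recycling, 5 were higher and 2 lower (median 0.04), and Glul, the glutamine synthetase gene and the highest of the list per kb of exon, had a log2 fold change of -0.03. The kynurenine pathway makes quinolinic acid, an NMDA receptor agonist, and kynurenic acid, an antagonist. Only 6 of its 12 genes passed the filter, 3 higher and 3 lower, from -0.24 for Afmid to 0.17 for Tdo2, both at 25.5 normalized reads or below, and Got2, the highest per kb of exon, had a log2 fold change of 0.02. Of 10 transcription regulators tied to Grin genes 3 were higher and 7 lower (median -0.02), and without TG replicate 1 these were 6 and 4 (median 0.04). Creb1 had a log2 fold change of 0.11, Ezh2 of -0.09 and Tbr1, a cortical transcription factor gene, of 0.07, and none was called.

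**Figure D5:**
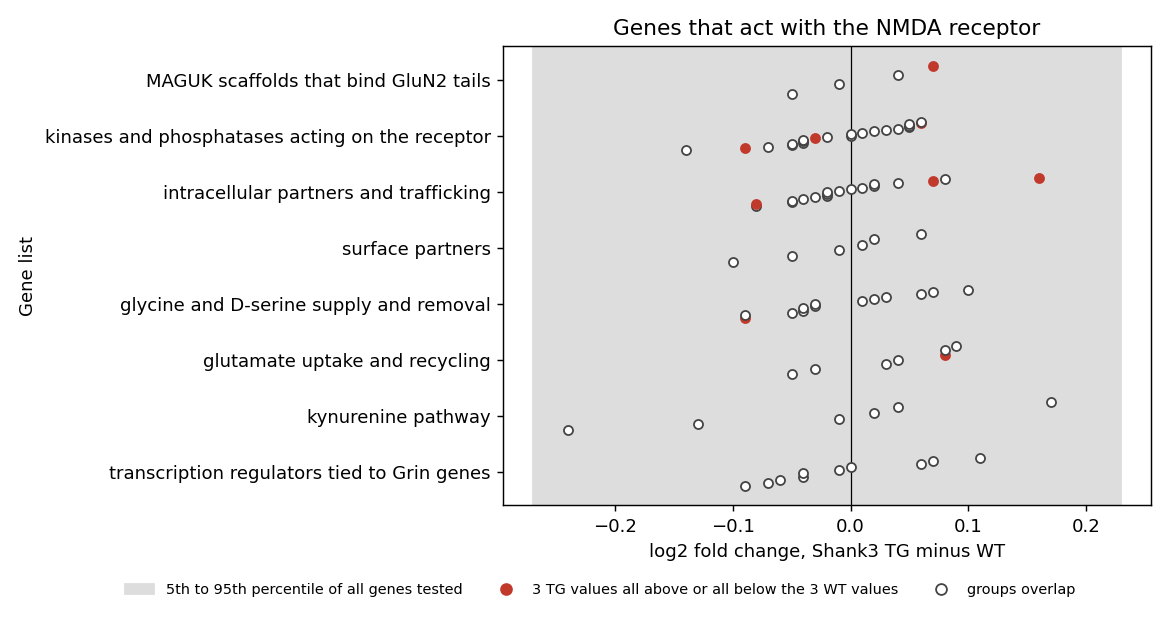
The log2 fold changes, Shank3 TG minus WT, of 85 genes that act with the NMDA receptor, in 8 lists, with genes whose genotypes did not overlap filled (9 genes); the grey band spans the 5th to the 95th percentile of all genes tested. All 85 points lie inside the band (-0.27 to 0.23).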

How the data were processed

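The members and the gene lists were chosen with earlier results of these data known. As the methods and labels state, the authors trimmed reads with Trimmomatic 0.35, mapped them to GRCm38 with TopHat2 2.1.0, obtained gene counts from HTSeq and scaled these by DESeq2 size factors. The deposited values are this signal, the normalized read count per gene and library. Whole reads were recovered from its steps for 100% of values (within 0.01 reads). Of 46078 identifiers, 45143 matched GENCODE M21. Library dates or batches are not given in the sources used here.

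The test was limma 3.58.1 with a mean-variance trend (R 4.3.3) on log2(normalized count + 1) for 17605 genes with a mean of at least 10, Benjamini-Hochberg adjusted at 0.05. Fold changes are on this scale. Shares, ratios and the mean log2 deviations of the marker lists were tested by exact two-sided permutation (SciPy 1.17.1), and relations to the marker lists over all orders of the 6 libraries. Alternatives were edgeR 4.0.16, DESeq2 1.42.0 and limma-voom on the recovered reads, library totals, TMM scaling, a filter at a mean of 50 or none, pseudocounts of 0.5 and 5, other gene lengths, the replicate number as a block and each library left out. Besides the subunit genes and Shank3, the text names the most abundant gene of each list (per kb of exon, or by count for markers), the smallest P value in each direction for the lists of genes that act with the receptor, the 2 genes most alike to each member, and genes sharing exon bases with a member. Some genes that this rule names are not reported here. Fgfr3, Aldoc, Gjb6, Gabra6, Cbln3 and Ttr were also named, as markers, after their values were seen. Clic6 was named because the paper called it. The fits were tested on simulated data.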

Additional observations from a re-analysis of the deposited data

How the results depend on the processing

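None of the 7 Grin genes was called under any of the 16 alternatives, and Grin1, Grin2a, Grin2c and Grin2d kept their direction in all of them; Grin3b was not tested with the filter at a mean of 50. The number of genes called among all tested was 1 with the main limma test, 7 with DESeq2 and 5 with no filter on low values. It was 1 to 2 with a library left out (2 without TG replicate 2 and 2 without TG replicate 3). These counts are not those of the paper, whose own analysis called more genes. With a library left out, Grin2b ranged from 0.00 to 0.11 (-0.00 without WT replicate 3), Grin3a from -0.01 to 0.12, Grin3b from -0.33 to 0.04 and the log2 ratio of Grin1 to summed Grin2 from -0.07 to 0.02, and the cause of these changes of sign was not tested beyond the smaller number of libraries. Single libraries also moved the size of differences that kept their sign: Grin1 ranged from -0.10 (without WT replicate 1) to -0.03 (without WT replicate 3), Grin2a from 0.04 (without WT replicate 3) to 0.17 (without WT replicate 2), and Grin2d from -0.25 with TG replicate 1 left out to -0.06 with TG replicate 3 left out. The share differences ranged from 1.28 to 2.13 points for Grin2a, 1.21 (without WT replicate 1) to 2.91 (without WT replicate 2) for Grin2b and -0.93 to -0.16 for Grin2d. Grin2c ranged from -0.21 to -0.17, and its share difference from -4.12 to -2.18 points. The median log2 fold change of all genes was -0.002 with the main test and between -0.004 and 0.003 under the other tools and scalings.

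With the replicate number as a block, Grin2c had an unadjusted P of 0.00315 (adjusted P = 0.851 by limma) and Grin2d of 0.0506 (adjusted P = 0.853), and adjusted P over the 7 genes ran from 0.851 to 0.942. Same-numbered libraries correlated at 0.047, 0.016 and 0.093, so the numbers were not shown to pair the mice.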
